A study of Mus musculus with 7 samples.

Results

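The genes examined were Tnf, the receptors Tnfrsf1a and Tnfrsf1b, the NF-kB subunits Nfkb1, Nfkb2 and Relb, and the feedback genes Nfkbia, Nfkbiz and Tnfaip3, 9 genes in all. They were taken by name from the expression table of satellite cells, the stem cells of skeletal muscle. Of these genes, 8 had a probe set annotated to them alone, 1 probe set each, out of 13287 genes with such a probe set, and Nfkb1 was not analysed here. All 8 were above the filter on low values (a mean over the arrays of at least 5.12 on the log2 scale), as were 9944 genes in all.

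Satellite cells had been sorted from limb muscles of Tg:Pax7-nGFP mice, in which a transgene with the regulatory region of Pax7 drives a nuclear green fluorescent protein, so every group carried the TgPax7nGFP genotype and the gate followed that reporter. There were 2 arrays of living old mice (24 to 26 months by the sample labels, although the series describes these animals elsewhere in weeks and as young adult), 2 arrays of mice kept until day 2 after death (D2PM) and 3 arrays of mice kept until day 4 (D4PM). By the study's account the mice examined after death had an age of 8 to 12 weeks, so that age and death cannot be told apart in any comparison with the old group, whereas D4PM and D2PM differed in time after death. Nothing in the labels ties the replicate arrays to different animals. The tests hence measure the spread between arrays, which may be technical, and the number of arrays limits their precision.

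TNF is a cytokine that binds a pair of receptors, and its main receptor passes the signal through ubiquitin-bound complexes to the IkB kinases. These kinases release NF-kB dimers from IkB proteins, and the dimers then switch on inflammatory genes together with genes that shut the pathway off again, among them Nfkbia and Tnfaip3. In muscle, TNF is known as a product of inflammatory cells that also acts on satellite cells and their descendants.

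The sequences just upstream of the transcription start show where the letters of an NF-kB-type motif lie in these genes. The motif searched was GGGNNNTTCC on either strand, and capitals mark each match. The sequences are from RefSeq (GRCm38.p6), are written 5′ to 3′ on the strand of the gene and come from windows of 300 bases that begin 250 bases before the start. Tnf is shown because its level differed most between the groups, Nfkbia and Tnfaip3 because they are the feedback genes with a window, and Nfkb2 as the subunit with a window. The positions are chr17:35202008-35202107 (minus strand) for Tnf, chr12:55492648-55492747 (minus strand) for Nfkbia, chr10:19015411-19015510 (minus strand) for Tnfaip3 and chr19:46304695-46304724 (plus strand) for Nfkb2.
Tnf: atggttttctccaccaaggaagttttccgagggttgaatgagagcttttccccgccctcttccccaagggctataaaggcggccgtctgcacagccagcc
Nfkbia: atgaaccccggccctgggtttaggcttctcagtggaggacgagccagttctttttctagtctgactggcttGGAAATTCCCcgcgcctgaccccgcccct
Tnfaip3: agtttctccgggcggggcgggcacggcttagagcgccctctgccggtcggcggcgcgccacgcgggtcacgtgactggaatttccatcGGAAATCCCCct
Nfkb2: cacgGGAATTCCCCccctcggggggccgaa

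The letters GGAAATTCCC began 29 bases before the start of Nfkbia, and GGAAATCCCC began 12 bases before that of Tnfaip3. All 3 windows of Nfkb2, both of Tnfaip3 and the 1 of Nfkbia held the motif, whereas the windows of Tnf, Tnfrsf1a and Tnfrsf1b held none. Over all genes, 5.56% of the windows (1825 of 32851) held it. A match is a stretch of letters and no measured binding. The lack of a match to this string in these windows does not show that a gene has no site. Relb, Nfkbiz and Nfkb1 were not in the table of windows.

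The 8 genes had been chosen by their levels and differences on these same arrays, among genes with a known place in the pathway. Their levels, differences and calls are therefore given as a description, and no p is attached to them. Levels are log2 values from the robust multi-array average (RMA), on which 1 unit is a doubling, and levels of different genes cannot be ranked against each other. A gene is said to have been called where its adjusted p in a limma fit of all genes was under 0.05. Both comparisons with the old group share its 2 arrays.

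Tnf, the ligand, was low in the living old mice, higher at D2PM and higher again at D4PM. Its level was 5.79 and 4.85 in old, 7.83 and 7.77 at D2PM, and 9.55, 10 and 9.16 at D4PM. The 3 groups did not overlap, and the second old array lay below the filter value. The mean was 5.32 ± 0.66 (SD, n = 2) in old, 7.80 ± 0.04 (n = 2) at D2PM and 9.57 ± 0.42 (n = 3) at D4PM. D2PM exceeded old by 2.48 ± 0.29 (standard error of the fit), D4PM exceeded old by 4.25 ± 0.27 and D4PM exceeded D2PM by 1.77 ± 0.27 (3.40-fold). No fold is given against old, where the level was near the filter value. Between D4PM and D2PM no other tested gene had a higher difference, while 10 genes exceeded it for D2PM against old and 2 for D4PM against old. The D4PM against D2PM call was lost without either old array, either D2PM array or D4PM replicate 1 or 2 and was kept without D4PM replicate 3, with differences of 1.55 to 1.97. The calls of Tnf against old were kept with each array left out in turn.

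**Figure D1:**
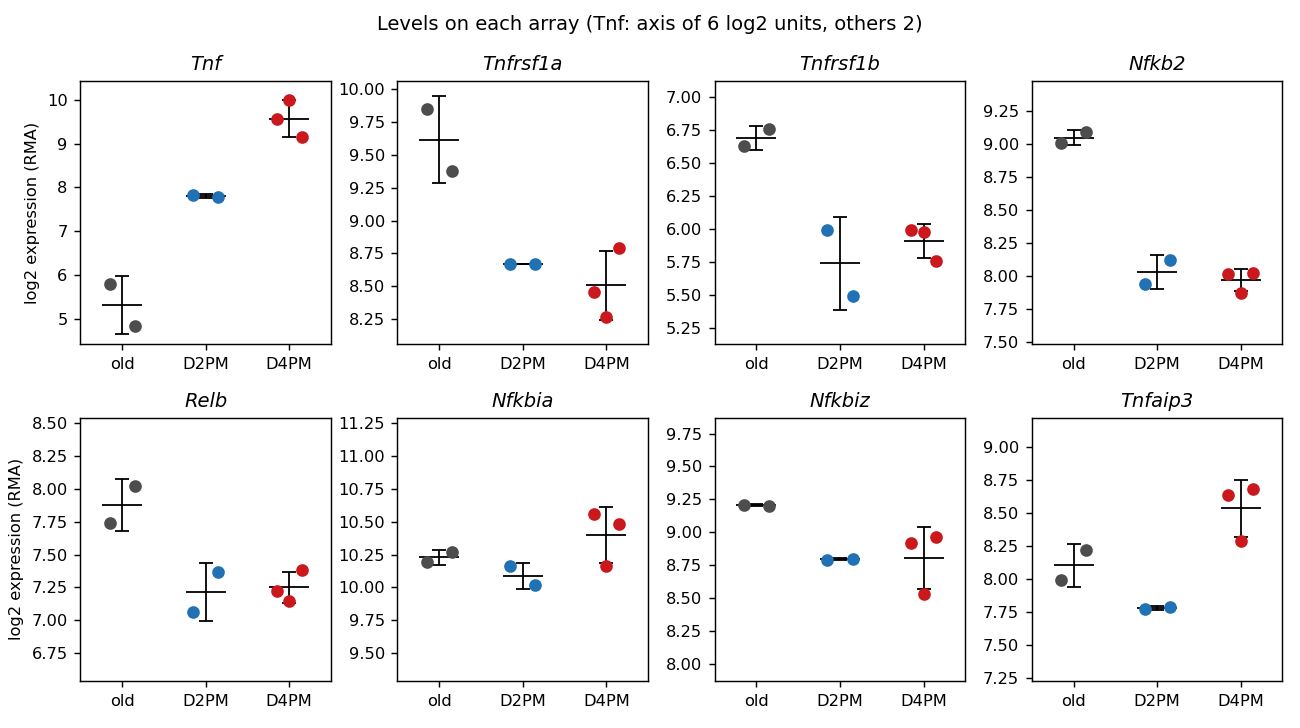
Levels of the 8 genes on each array (log2 expression after RMA), by group, with the mean and SD as black bars; the axis spans 6 units for Tnf and 2 for the others. Tnf steps up from old (4.85 and 5.79) to D2PM (7.77 and 7.83) to D4PM (9.16 to 10), whereas Tnfrsf1a, Tnfrsf1b, Nfkb2, Relb and Nfkbiz lie highest on the old arrays.

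The mean of 12 satellite cell markers was 10.05 to 10.22 over the 7 arrays, and Pax7 itself, which marks these cells, was 9.87 to 10.52. Single markers moved both ways under that mean, with 3 called higher and 2 lower at D2PM than in old, and 3 and 3 at D4PM than in old. The shares called, 41.7% and 50%, lay above those of all genes (19.4% and 27.9%). None was called between D4PM and D2PM (0 at an unadjusted limma p under 0.05). Hey1 and Heyl, targets of Notch, were higher at D2PM (0.93 and 0.82) and D4PM (1.05 and 0.79), and Myod1, the myogenic factor, and Vcam1, an adhesion protein, were lower (-1.11 and -0.66, then -1.35 and -0.81). The mean of the 14 macrophage and monocyte markers in the table, of 18 listed, was 5.11 to 5.66 in old, 5.08 to 5.28 at D2PM and 5.07 to 5.26 at D4PM. Of the 8 that were tested, 1 was lower at D2PM and at D4PM than in old (Cd14, a receptor of monocytes, by -1.01 and -1.04). That share, 12.5% in both comparisons, stood beside 9.11% and 15.5% of all genes called lower, and 19.4% and 27.9% called either way. None was called higher or called between D4PM and D2PM (2 at an unadjusted limma p under 0.05). Ptprc, carried by all white blood cells, was 3.89 to 4.34 on the 7 arrays, below the filter value. Cd68 and Lyz2, made by phagocytes, ranged from 6.90 to 7.80 and from 5.71 to 7.21, and Lyz2 overlapped between all groups. Cd68 was at 7.40 and 7.50 in old, 6.90 and 7.02 at D2PM, and 7.80, 7.12 and 7.31 at D4PM. It thus lay lower at D2PM than in the other groups, as all D4PM arrays exceeded both D2PM arrays, like those of Tnf, by a mean of 0.45 that was not called after adjustment. The 7 lymphocyte and NK markers in the table, of 14 listed, had a mean of 4.21 to 4.46, and those 7 and the 2 mast cell markers in the table, of 7 listed, were all under the filter.

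Endothelial markers did move with the groups. All 18 had a difference above 0 in each comparison. Of them, 7 were called higher at D2PM than in old (38.9%, beside 10.3% of all genes). Against old, 14 were called higher at D4PM (77.8%, beside 12.4% of all genes), and 0 at D4PM than at D2PM (1 at an unadjusted limma p under 0.05). The mean of the 18 was 6.61 and 5.98 in old, 6.99 and 6.98 at D2PM, and 7.53, 7.30 and 6.99 at D4PM. The mean of the 5 neutrophil markers in the table, of 8 listed, was 5.66 and 6.64 in old, 6.08 and 6.55 at D2PM and 5.09 to 6.61 at D4PM, with S100a8, a protein of neutrophils, at 4.73 to 8.81 within D4PM. The 9 markers of fibroadipogenic progenitors in the table, of 12 listed, had means of 7.45 and 7.93 in old, 7.99 and 8.01 at D2PM and 7.55 to 7.85 at D4PM. Of the 8 tested, 2 were called, higher at D2PM than in old (25%, beside 10.3% of all genes). The part of these other cells in the levels of Tnf was not tested, and in such bulk samples fewer cells of a type and less RNA per cell cannot be told apart.

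**Figure D2:**
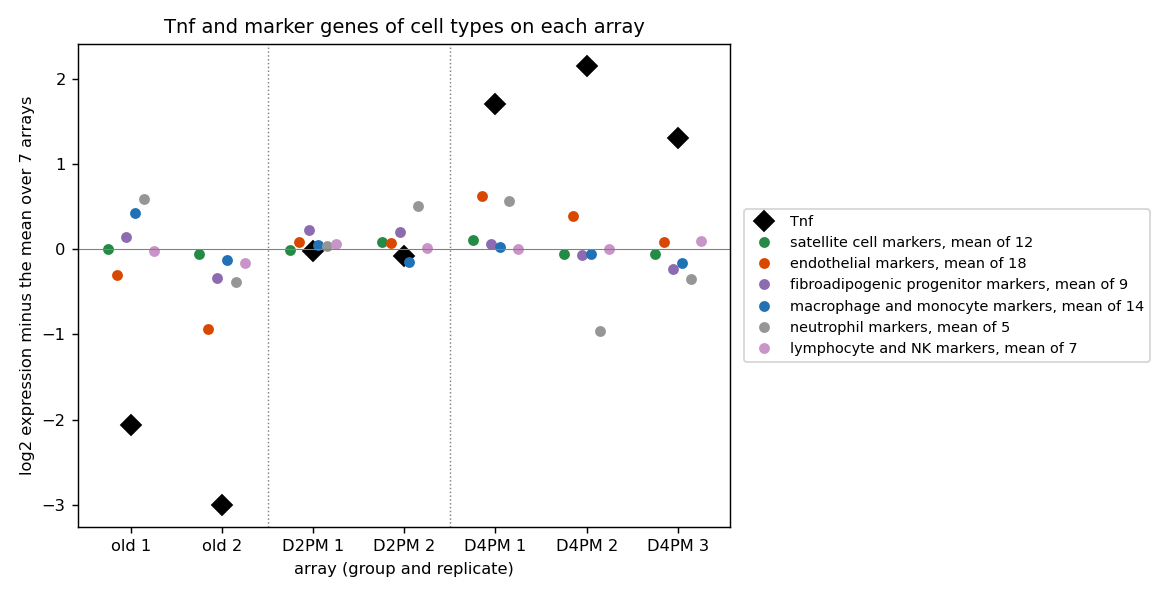
Tnf (black diamonds) and the mean of the markers of 6 cell types (dots) on each array, each as log2 expression minus its own mean over the 7 arrays; dotted lines part the groups. Tnf runs from 4.85 to 10, and the endothelial mean (5.98 to 7.53) is lowest on both old arrays, as Tnf is; a mean over markers varies less than its single genes do.

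Both receptors were lower after death than in the old group, by close to 1 log2 unit. Tnfrsf1a, which encodes the receptor with a death domain, stood at 9.85 and 9.38 in old, at 8.67 on both D2PM arrays and at 8.46, 8.27 and 8.79 at D4PM. The old arrays were above all post-mortem arrays, and D4PM lay on both sides of D2PM. D2PM differed from old by -0.94 ± 0.19 and D4PM from old by -1.11 ± 0.18, both called, and D4PM from D2PM by -0.16 (95% interval -0.55 to 0.22). Without old replicate 1 or either D2PM array the D2PM difference was no longer called, at -0.71 without old replicate 1 and -0.94 without each D2PM array.

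Tnfrsf1b encodes the receptor that lacks a death domain. It was at 6.63 and 6.76 in old, 5.99 and 5.49 at D2PM, and 5.99, 5.98 and 5.76 at D4PM. Again the old arrays were the higher ones, and the post-mortem groups overlapped. The differences were -0.95 ± 0.18 for D2PM against old and -0.78 ± 0.16 for D4PM against old, both called, and 0.17 (95% interval -0.18 to 0.52) for D4PM against D2PM. Both calls against old were lost without old replicate 2 (-0.89 and -0.72), and the D2PM call also without D2PM replicate 2 (-0.70).

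The subunits of the alternative NF-kB pathway were lower after death as well, with D2PM and D4PM at about the same level. Nfkb2, which encodes the precursor p100, was at 9.01 and 9.09 in old, 7.94 and 8.12 at D2PM, and 8.01, 7.87 and 8.02 at D4PM. The 2 old arrays lay well above the other 5, which overlapped with each other. D2PM differed from old by -1.02 ± 0.14 and D4PM from old by -1.08 ± 0.13, both called and kept with each array left out, and D4PM differed from D2PM by -0.06 (95% interval -0.34 to 0.21).

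Relb encodes the partner of the processed p100. Its levels were 7.74 and 8.02 in old, 7.06 and 7.37 at D2PM, and 7.22, 7.15 and 7.38 at D4PM. No post-mortem array reached the lower old array. The differences were -0.66 ± 0.16 at D2PM and -0.63 ± 0.15 at D4PM, both called, and 0.04 (95% interval -0.29 to 0.36) between D4PM and D2PM. Without old replicate 2 both calls against old were lost (-0.52 and -0.49), and without D2PM replicate 1 that of D2PM (-0.51).

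The feedback genes did not share a pattern. Tnfaip3, which encodes the ubiquitin-editing enzyme A20, a brake on TNF receptor signalling, was at 7.99 and 8.22 in old, 7.77 and 7.79 at D2PM, and 8.64, 8.29 and 8.68 at D4PM. All D4PM arrays lay above the old arrays, and both D2PM arrays lay below them. D4PM exceeded old by 0.43 ± 0.15, which was called, and the differences from D2PM to D4PM and from old to D2PM, 0.76 (95% interval 0.43 to 1.08) and -0.32 (95% interval -0.68 to 0.03), were not. Between D4PM and D2PM 37 of the 9944 genes had a higher difference than Tnfaip3. The D4PM against old call was lost, at 0.32 to 0.55, without any 1 array other than D4PM replicate 2.

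Nfkbia, which encodes IkB-alpha, the inhibitor that is degraded and made anew in each round of signalling, was at 10.19 and 10.27 in old, 10.16 and 10.02 at D2PM, and 10.56, 10.16 and 10.48 at D4PM. The second D4PM array was level with the first D2PM array to the second decimal, and the old arrays lay within the range of D4PM. No difference was called, at -0.14 (95% interval -0.48 to 0.21) for D2PM against old, 0.17 (-0.14 to 0.49) for D4PM against old and 0.31 (-0.01 to 0.62) for D4PM against D2PM. The intervals leave room for a difference of 0.62 between D4PM and D2PM and of 0.49 between D4PM and old.

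Nfkbiz encodes IkB-zeta, a nuclear member of the family that acts at promoters. It was at 9.21 and 9.20 in old, 8.79 and 8.80 at D2PM, and 8.92, 8.53 and 8.96 at D4PM. Both old arrays were above the other 5. The differences from old, -0.41 (95% interval -0.77 to -0.06) and -0.40 (-0.73 to -0.08), were not called in the fit of all arrays, that of D2PM was called without D4PM replicate 2 (-0.41), and D4PM against D2PM was at 0.01 (-0.32 to 0.33).

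**Figure D3:**
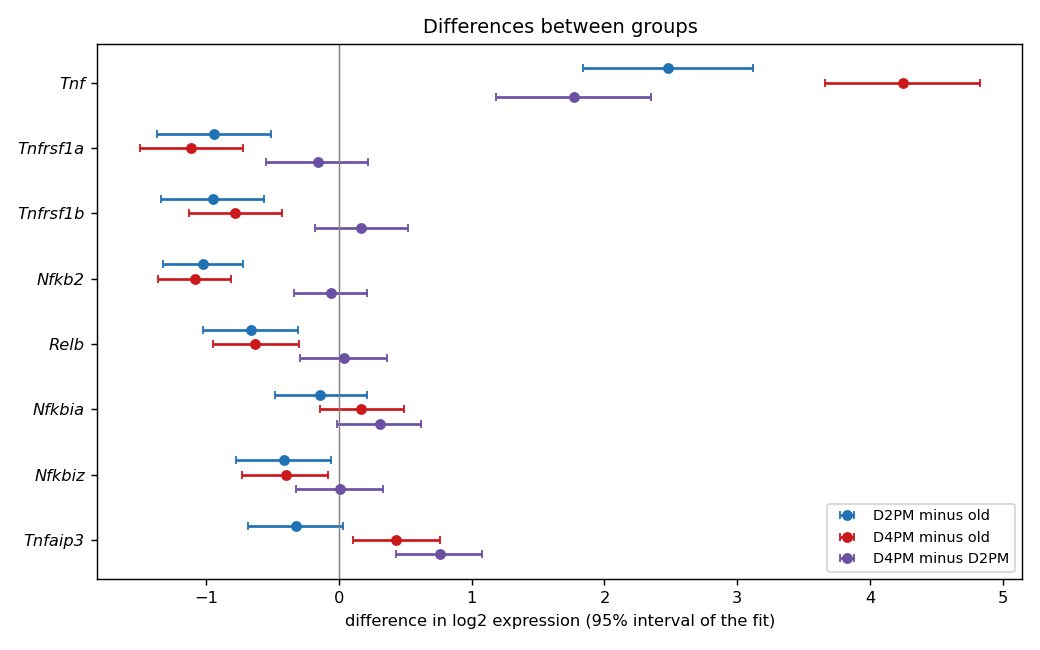
Differences between group means of the 8 genes on the log2 scale (dots) with the 95% interval of the fit (bars), for D2PM minus old (blue), D4PM minus old (red) and D4PM minus D2PM (purple). Tnf stands alone on the right (1.77 to 4.25), Tnfrsf1a, Tnfrsf1b, Nfkb2 and Relb are lower than old by 0.63 to 1.11, and Tnfaip3 turns from -0.32 at D2PM to 0.43 at D4PM.

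Over the 8 genes, 1 was called between D4PM and D2PM (Tnf), beside 0.191% of all genes tested. For D2PM against old 5 were called, beside 19.4% of all genes, 1 of them higher and 4 lower (10.3% and 9.11% of all genes). For D4PM against old 6 were called, beside 27.9%, with 2 higher and 4 lower (12.4% and 15.5%). The arrays of the 2 groups did not overlap for 3 genes between D4PM and D2PM (25.3% of all genes), for 8 between D2PM and old (62.2%) and for 7 between D4PM and old (54.5%). These counts follow from how the genes were picked and nothing is read from them.

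By the root mean square distance of the profiles over the 7 arrays, each centred on its own mean, Tnf was 1.66 to 2.25 log2 units away from each of the other 7 genes. Those 7 lay nearer to one another, from 0.18 (Relb and Nfkbiz) to 0.68 (Tnfrsf1a and Tnfaip3). For each of the 7 the nearest tested gene was not a member, at 0.04 (Clk4, for Nfkbiz) to 0.15 (Cryba1, for Tnfaip3). The distance is not scaled, so it grows with the range of a gene over the arrays, which was 5.14 for Tnf and at most 1.57 for the others. The profiles most like that of Tnf were those of Ifit3 (0.23), Ifit3b (0.28), Ifnb1 (0.46), Ifit2 (0.46), Oasl1 (0.47), Cxcl10 (0.53), Rsad2 (0.55) and Oasl2 (0.56), among the 9944 genes. Ifit3 was at 6.48 and 6.20 in old, 9.06 and 8.87 at D2PM, and 10.52, 10.79 and 10.40 at D4PM. Ifnb1, which encodes interferon beta, was at 4.38 and 4.45 in old, 7.59 and 7.13 at D2PM, and 8.68, 9.94 and 7.97 at D4PM. Ifit3b (3.89 and 3.87 in old), Ifnb1, and on 1 old array Ifit2 (4.81), lay below the filter value in old. The mean of Ifit2 in old (4.98) was below it too. Ifit3b, Ifnb1 and Ifit2 were thus among the tested genes only through their levels after death. All 8 had their lowest levels on the old arrays, and D4PM replicate 2 was highest for Tnf, Ifit3, Ifit3b, Ifnb1, Ifit2 and Rsad2. With 7 arrays in 3 groups such likeness mostly records the order of the groups.

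**Figure D4:**
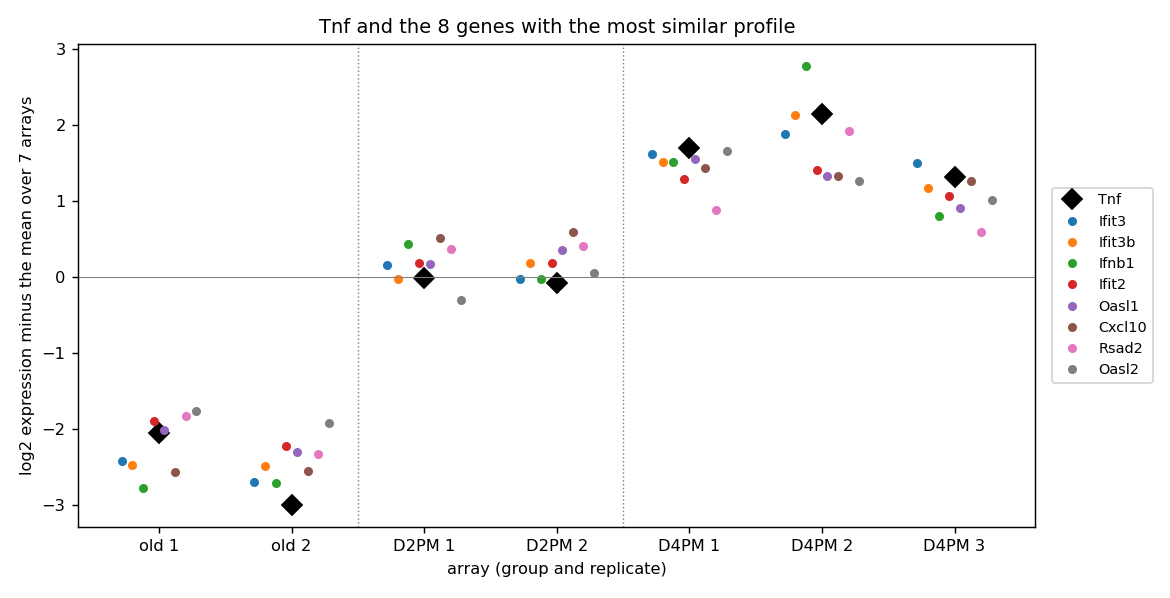
Log2 expression of Tnf (black diamonds) and of the 8 genes with the smallest distance from its profile (dots) on each array, each minus its own mean over the 7 arrays; dotted lines part the groups. Every gene is lowest on the old arrays and highest at D4PM, and Tnf spans 4.85 to 10 before centring.

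The other members of the pathway came from lists, without the 8 already given. The lists were drawn up with earlier results of these arrays known, so their counts and adjusted p-values, taken over all genes, are not independent evidence. In comparisons with old, the words fell, rose and lower after death describe levels relative to the old group, which also differed in age. Of the ligands of the TNF superfamily, 2 of 17 were tested and neither was called in any comparison. One was Ltb, which encodes lymphotoxin beta and lies near Tnf on chromosome 17 in the order Lst1, Ltb, Mir6973a, Tnf, Lta. Ltb was at 5.33 and 5.13 in old, 5.50 and 5.46 at D2PM, and 5.46, 5.55 and 5.57 at D4PM. Its post-mortem arrays lay above the old ones by less than 0.5, with differences of 0.25 (95% interval -0.05 to 0.55) at D2PM and 0.30 (0.03 to 0.57) at D4PM, neither called, and 0.05 (-0.22 to 0.32) between D4PM and D2PM. Lta, the next gene after Tnf in that order, was not analysed here.

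Most tested genes of the other Rel subunits and IkB proteins were lower after death. Of the 5 tested, 4 fell from old to D2PM and 3 from old to D4PM (80% and 60%), and none rose. Of all genes, 9.11% and 15.5% were called lower, and 19.4% and 27.9% either way. Nfkbie was not called in either comparison with old. Between D4PM and D2PM none of the 5 was called (0 also at an unadjusted p under 0.05). Their median difference was -0.57 at D2PM, where the median of all genes was 0.00, and -0.41 at D4PM. Rela, the main activating subunit, was at 10.57 and 10.48 in old, 9.84 on both D2PM arrays, and 9.84, 9.53 and 9.73 at D4PM. It thus lay lower on every post-mortem array, by -0.69 ± 0.14 at D2PM (limma adjusted p = 0.00798) and -0.83 ± 0.13 at D4PM (limma adjusted p = 0.0011). Rel fell by -0.42 ± 0.13 at D2PM (limma adjusted p = 0.0432) and was -0.30 (95% interval -0.57 to -0.04) lower at D4PM, not called. Bcl3, an IkB protein that binds p50 and p52 dimers in the nucleus, fell by -1.20 ± 0.25 at D2PM and by -1.31 ± 0.23 at D4PM. Without old replicate 2 or either D2PM array, 0 of the 5 passed at D2PM, and 2 or 3 passed at D4PM with each array left out in turn.

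Components of TNF receptor signalling moved less uniformly. Of 23 tested, 1 rose and 4 fell from old to D2PM, 6 fell from old to D4PM and none was called between D4PM and D2PM (1 at an unadjusted p under 0.05). The shares called, 21.7% and 26.1%, were near those of all genes (19.4% and 27.9%). All calls at D4PM were lower, beside 15.5% of all genes called lower. The medians were -0.11 in both comparisons with old. Birc3, a ubiquitin ligase of the receptor complex, was at 8.85 and 8.68 in old, 7.93 and 7.51 at D2PM, and 7.80, 7.66 and 8.03 at D4PM. It fell by -1.04 ± 0.18 at D2PM (limma adjusted p = 0.00284) and by -0.94 ± 0.16 at D4PM (limma adjusted p = 0.00166), and both calls were kept with each array left out. Tbk1, a kinase that acts beside the IkB kinases, fell by -0.69 ± 0.15 at D4PM and its partner Tank by -0.58 ± 0.13, while Fadd, the death domain adaptor, rose by 0.46 ± 0.13 at D2PM. Without old replicate 2 only 1 of the 23 passed at D2PM and 1 at D4PM, and without either D2PM array 1 passed at D2PM.

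Some genes for proteins that work with A20 were lower after death. Of 9 tested, 3 fell at D2PM and 3 at D4PM against old (33.3% in each case), with medians of -0.29 and -0.36. Of all genes, 9.11% and 15.5% were called lower, and 19.4% and 27.9% either way. In each case 6 were not called and none rose. None was called between D4PM and D2PM (0 at an unadjusted p under 0.05). Tnip2, an adaptor that binds A20, fell by -0.99 ± 0.20 at D2PM and -1.18 ± 0.18 at D4PM, and Tnip1, another such adaptor, by -0.76 ± 0.13 and -0.57 ± 0.12. The count at D2PM was 1 without old replicate 2 or either D2PM array, and that at D4PM was 1 without old replicate 2.

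Among 16 genes that act on Tnf mRNA or release the protein, 2 fell at D2PM, and 4 fell and 1 rose at D4PM against old, with none called between D4PM and D2PM (0 at an unadjusted p under 0.05). The shares called against old, 12.5% and 31.2%, stood beside 19.4% and 27.9% of all genes. Both calls at D2PM were lower, beside 9.11% of all genes called lower. Adam17, the protease that sheds TNF from the cell surface, was at 7.76 and 8.07 in old, 7.52 on both D2PM arrays, and 7.42, 7.52 and 7.0 at D4PM. It fell by -0.60 ± 0.17 at D4PM (limma adjusted p = 0.0199). Zfp36, which encodes tristetraprolin, a protein that speeds the decay of Tnf mRNA, was at 11.58 and 11.26 in old, 11.48 and 11.47 at D2PM, and 11.79, 11.60 and 11.90 at D4PM. Its differences, 0.05 (95% interval -0.29 to 0.40) at D2PM, 0.34 (0.03 to 0.66) at D4PM and 0.29 (-0.03 to 0.60) between D4PM and D2PM, were not called. With old replicate 2 left out, 0 of the 16 passed at D2PM, as with either D2PM array left out, and 1 passed at D4PM, as without D4PM replicate 3.

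Of 14 other receptors of the superfamily, 2 fell at D2PM and 3 at D4PM against old, and none rose. The shares called, 14.3% and 21.4%, lay between those of all genes called lower (9.11% and 15.5%) and called either way (19.4% and 27.9%). None was called between D4PM and D2PM (0 at an unadjusted p under 0.05). Eda2r, a receptor of ectodysplasin, fell by -0.88 ± 0.17 at D2PM and -1.22 ± 0.16 at D4PM, and Tnfrsf21, death receptor 6, by -0.91 ± 0.19 and -0.79 ± 0.18. Without old replicate 2 or either D2PM array no receptor passed at D2PM, and without old replicate 2 there was 1 at D4PM.

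**Figure D5:**
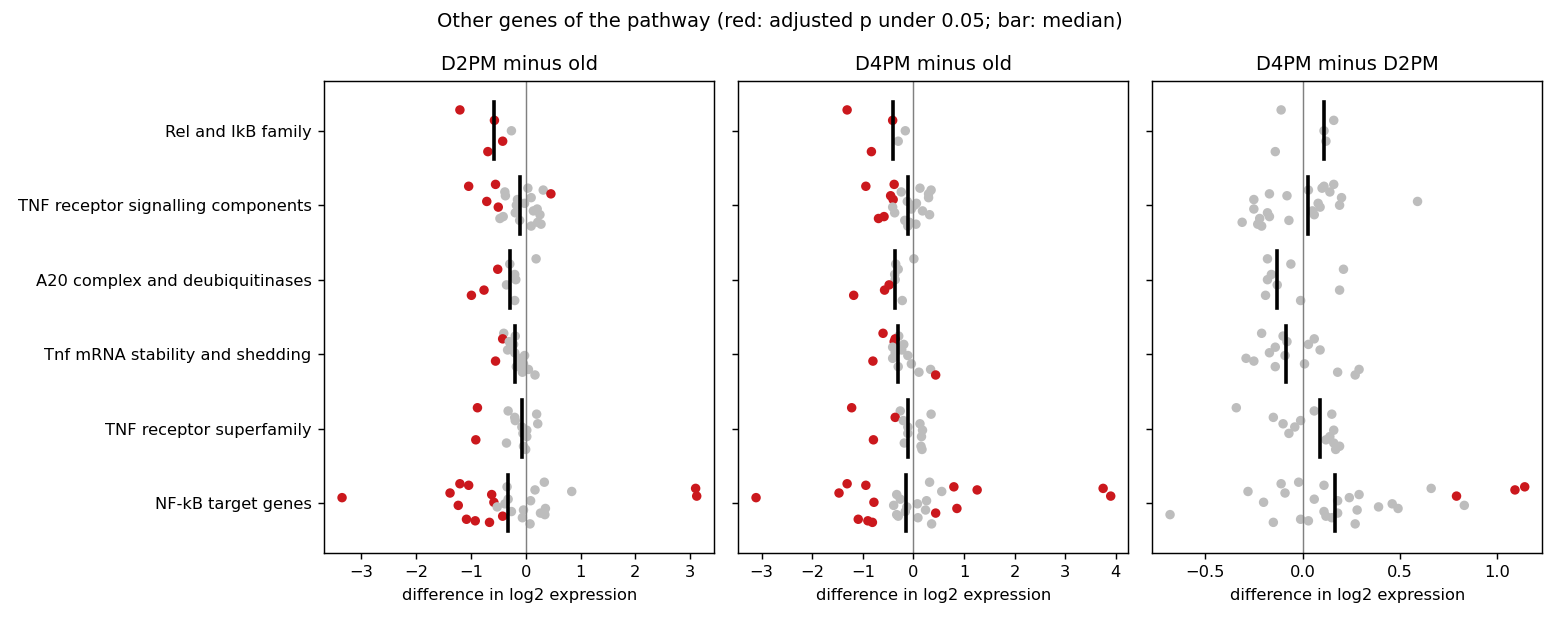
Difference in log2 expression of each tested gene (dots; red where the adjusted p was under 0.05) in 6 lists of the pathway, without the 8 genes described first, for D2PM minus old, D4PM minus old and D4PM minus D2PM; black bars are list medians and the horizontal scales differ. All 5 Rel and IkB genes lie below 0 against old, and the NF-kB targets spread from -3.35 to 3.90 with calls on both sides.

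Genes known as NF-kB targets went both ways. Of 28 tested, 2 rose and 11 fell from old to D2PM, 6 rose and 8 fell from old to D4PM, and 3 rose and none fell from D2PM to D4PM, with medians of -0.33, -0.14 and 0.16. The shares called were 46.4%, 50% and 10.7%, beside 19.4%, 27.9% and 0.191% of all genes. Birc3, Bcl3, Rel, Nfkbie and Fas stand in this list as well as in those already described, and Vcam1 stands also among the satellite cell markers. Cxcl10, a chemokine that draws T cells, was at 8.34 and 8.36 in old, 11.43 and 11.51 at D2PM, and 12.34, 12.24 and 12.17 at D4PM. The groups did not overlap, and Cxcl10 exceeded old by 3.12 ± 0.13 at D2PM (limma adjusted p = 2.8e-07) and by 3.90 ± 0.12 at D4PM (limma adjusted p = 8.18e-09). Ccl5, another chemokine, rose by 3.10 ± 0.41 and 3.75 ± 0.37. Cxcl2, a chemokine that draws neutrophils, went the opposite way. It was at 9.56 and 10.01 in old, 6.48 and 6.39 at D2PM, and 7.04, 6.97 and 6.0 at D4PM, with differences of -3.35 ± 0.29 (limma adjusted p = 6.3e-05) and -3.11 ± 0.27 (limma adjusted p = 2.6e-05). Csf1, the growth factor of macrophages, fell by -1.38 ± 0.19 and -1.47 ± 0.17.

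From D2PM to D4PM the target genes that rose beside Tnf were 3 chemokines. Ccl2, which draws monocytes, was at 9.67 and 9.26 at D2PM and at 10.49, 10.95 and 10.37 at D4PM, a rise of 1.14 ± 0.19 (limma adjusted p = 0.0478). Ccl7, its neighbour in the same cluster of chemokine genes, was at 9.12 and 8.76 and then at 10.11, 10.21 and 9.77, a rise of 1.09 ± 0.16 (limma adjusted p = 0.0347). Cxcl10 rose by a further 0.79 ± 0.12 (limma adjusted p = 0.0347). On the old arrays Ccl2 was at 9.64 and 9.96 and Ccl7 at 8.82 and 8.72, which overlapped with D2PM. Their differences of D2PM from old, -0.34 (95% interval -0.8 to 0.13) and 0.17 (-0.22 to 0.56), were not called. D4PM and D2PM did not overlap for any of the 3 chemokines, as for 25.3% of all genes. None of the 3 passed without either old array, either D2PM array or D4PM replicate 1 or 2, and 2 passed without D4PM replicate 3. Against old, 6 of the 28 targets passed at D2PM without old replicate 2 or D2PM replicate 1.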

How the data were processed

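RNA of sorted cells was amplified (Ovation Pico V2) and hybridised to 7 Mouse Gene 1.0 ST arrays. The authors normalised the arrays with RMA and deposited log2 expression values per probe set. The build is not given in the sources used here. RMA evens the distributions of the arrays (medians 6.11 to 6.19), so differences are relative to the bulk of genes, and a filter by the authors removed invariant probe sets (lowest SD 0.0914). Of 18675 probe sets, 14480 had 1 gene in the platform annotation, 774 several and 3421 none; several were left unnamed. The brightest probe set stood for a gene. Genes with a mean under the 25th percentile (5.12) were dropped. The 3 groups were fitted together in limma 3.58.1 (R 4.3.3), and p-values were adjusted over 9944 genes (Benjamini-Hochberg, under 0.05). Scripts were tested on simulated data. From each list up to 4 genes with the largest moderated statistic among those called could be named, beside the members and Rela, Rel, Ltb and Zfp36. The members and lists were chosen with earlier results of these data known. Alternatives covered centring, filters, probe set choice, variance models, a replicate block, each array left out, fits of 2 groups and Student's test as a comparison.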

Additional observations from a re-analysis of the deposited data

Results flagged for a closer look

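The 4 genes described above that differed by the limma test between D4PM and D2PM, 2 groups that share the contrast with old, were Tnf (1.77), Ccl2 (1.14), Ccl7 (1.09) and Cxcl10 (0.79), each higher at D4PM on the log2 scale. Tnf had been chosen with this difference in view, and the list holding Ccl2, Ccl7 and Cxcl10 was drawn up with earlier results known. Every D4PM array was above both D2PM arrays for each of the 4 genes. Over all genes, 0.191% were called in this comparison and 25.3% did not overlap. As the 4 were picked by their calls, nothing is read from the lack of overlap. Without D4PM replicate 3 Tnf, Ccl2 and Ccl7 were still called, and in no other omission of 1 array was any of the 4 called.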

How the results depend on the processing

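The number of arrays was the main limit. Genes called numbered 19 between D4PM and D2PM, 1931 for D2PM against old and 2770 for D4PM against old, and with each array left out in turn they ranged from 0 to 21 (0 without either D2PM array, where 358 and 781 genes had an unadjusted limma p under 0.05), from 323 (without D2PM replicate 1) to 2054 and from 911 (without old replicate 2) to 2512. Of the 8 members 0 to 1, 3 to 6 and 3 to 6 were then called, and of the listed pathway genes 0 to 2, 7 to 29 and 15 to 29. Student's t-test called 0, 15 and 14 genes (692, 2028 and 2747 at an unadjusted p under 0.05), 0, 0 and 0 members (2, 3 and 5 unadjusted) and 0, 0 and 1 listed genes (12, 29 and 35 unadjusted). With only the arrays of D4PM and D2PM in the fit, 2 genes, 0 members and 0 listed genes passed, and 777, 2 and 9 did so unadjusted. A trended and robust prior left 0 members called in that comparison (3 unadjusted), and array weights called 2, Tnf and Tnfaip3. The replicate numbers did not pair the arrays (correlations of same-numbered arrays from -0.08 to 0.05). Replicate 3 existed only at D4PM, so a fit with the replicate block took no difference from that array, as with its omission. The block fit called 54 genes and 5 listed genes between D4PM and D2PM. Under it Nfkbiz gained a D4PM against old call and Tnfaip3 lost its own. Tnfaip3 lost that call also with no filter on low values and with only the arrays of the 2 groups. The sign of small, uncalled differences turned for Nfkb2 with a second quantile normalisation (0.00) and without D2PM replicate 2 (-0.15 to 0.02 over the omissions), for Nfkbiz with the replicate block (-0.07) and without D4PM replicate 1 or 3 (-0.07 to 0.15), for Relb with the block (-0.03) and without D2PM replicate 1 or D4PM replicate 3 (-0.11 to 0.19), and for Tnfrsf1b without D2PM replicate 2 (-0.08 to 0.42), all for D4PM against D2PM, and for Zfp36 at D2PM with a second quantile normalisation (-0.06) and without old replicate 2 (-0.11 to 0.22). The cause was not tested. Scaling moved the median of all genes by under 0.1.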

Other observations

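Of the 9944 genes tested, 3855 (38.8%) had the same deposited value on at least 2 arrays, and 568 (5.71%) had it on both D2PM arrays. Among the 8 genes this held for Tnfrsf1b, with 6 distinct values on 7 arrays, and Rela, outside them, had 5.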
